A study of Homo sapiens with 4 samples.

Results

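The immediate early genes *EGR1*, *EGR2*, *EGR3*, *EGR4*, *NR4A1*, *NR4A2*, *NR4A3*, *IER2*, *IER3* and *CSRNP1* were examined in the human pre-B line Nalm-6, grown without oxidative stress. All 10 genes were represented on the arrays, by 11 of the 41000 probes, and they are 10 of the 17673 genes that could be named. They were chosen by their processed signals on these same arrays, so the values below are a description and no difference was tested. The cells were wild-type cells, Arp5 KO cells, and cells from which came arrays labelled Arp8 KO and Arp8 overexpression, with total RNA from each hybridized to 1 Agilent single-color (Cy3) array. Arp5 and Arp8 are actin-related proteins of the INO80 chromatin remodeling complex, and their loci had been disrupted by homologous recombination. The series' design ties a tetracycline-regulated (Tet-Off) Arp8 construct to the Arp8 KO cells, without saying how the overexpressing cells were otherwise made. No source used here states how many clones or cultures stood behind an array. All 4 arrays lay on one slide and were read in one scan.

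Immediate early genes are transcribed within minutes of a growth factor, stress or antigen receptor signal, without the need for new protein synthesis. Serum response factor, bound at CArG boxes together with ternary complex factors of the ETS family, and CREB-type factors at cAMP response elements pass the signal from the ERK kinase pathway to their promoters. Their mRNAs are short-lived, and in B-lineage cells *EGR1* and the NR4A genes are known as early responders to receptor signaling.

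Each genotype has a single array, so differences come without a replicate check, and the number of arrays limits the precision. Signals are given in the arbitrary units of the scanner software's processed intensity, and ratios were formed after the 75th percentile of each array had been set equal. Well above background is that software's own mark, and a gene was counted as higher or lower when its ratio, or the bound on it, passed 2-fold. An alternative called normexp here models the background, adds an offset of 50 units and then applies quantile normalization, so that its values differ from the main ones by all of these steps. Technical error of log2 ratios was taken from 264 probes that each array carries as 10 spots. Its median SD was 0.511 for a dimmest signal under 10 units, 0.247 between 10 and 20 units, 0.171 between 20 and 50 units, 0.059 between 50 and 500 units and 0.031 above. The values of 0.247 and 0.171 rest on only 11 and 12 of these probes. The technical error holds no variation between cultures. Each array had 43376 spots other than controls, and those well above background numbered 31188 (wild-type cells), 31420 (Arp5 KO cells), 30394 (labelled Arp8 KO) and 30803 (labelled Arp8 overexpression).

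The labels were first set against the targeted genes. *ACTR5*, the gene for Arp5, gave 1909 units in wild-type cells and 65.3 units in Arp5 KO cells, 1849 units on the array labelled Arp8 KO and 2088 units on the array labelled Arp8 overexpression. *ACTR8*, the gene for Arp8, is read by the probes A_24_P131697 and A_23_P80694. The first gave 2149, 2233, 1654 and 1857 units in the same order of arrays, and the second gave 1092, 993, 785 and 679 units. On both arrays with an Arp8 label *ACTR8* signal was thus below that of wild-type cells, by less than 2-fold, and was not raised on the array labelled Arp8 overexpression. Whether these probes lie in the disrupted or the introduced part of the gene was not examined here, and every direction below that involves these arrays rests on their labels. The pre-B markers were present on every array, with 10 of 10 well above background and *IGLL1*, a surrogate light chain gene, the brightest at 136612 to 140829 units.

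Among the members the largest single difference was that of *EGR1* in the Arp5 KO cells. This zinc finger transcription factor had the highest log2 ratio to wild-type cells of all 13247 genes measured on both arrays. Of the 10 members, 9 had a signal on either array. Of these, 4 were higher than in wild-type cells beyond 2-fold in Arp5 KO cells, namely *EGR1*, *IER2*, *IER3* and *CSRNP1*, where 1.16% of 13700 genes with a signal on either array were, and 0 were lower, where 1.39% were. For the array labelled Arp8 KO, 8 members had a signal on it or in wild-type cells. Of these, 4 were higher on that array, namely *EGR1*, *EGR2*, *NR4A2* and *CSRNP1*, against 1.81% of genes, and *EGR4* alone was lower, against 1.91%. With normexp *EGR2* at 0.55 and *NR4A2* at 0.18 were within 2-fold there, and *EGR1* at 1.24 remained, while *CSRNP1* at 1.0 stood at the 2-fold line. On the array labelled Arp8 overexpression, also with 8 such members, *CSRNP1* alone was higher, against 1.85%, and *EGR4* alone lower, against 1.94%. The median log2 ratio of all 10 members, each at its own signal, came to 1.03 for Arp5 KO cells, 0.67 for the array labelled Arp8 KO and 0.20 for the array labelled Arp8 overexpression, beside 0.01, 0.07 and 0.05 over all 17673 genes. These medians, like those of gene lists below, include signals not well above background. *EGR3* entered the one for Arp5 KO cells at 2.07, where its bound was 0.47. All ratios to wild-type cells share the wild-type array. Since the members were chosen on these values, nothing is read from the counts. Of the 10 members, 6 were well above background on all 4 arrays, 3 on some of them, and *NR4A3* on none.

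**Figure D1:**
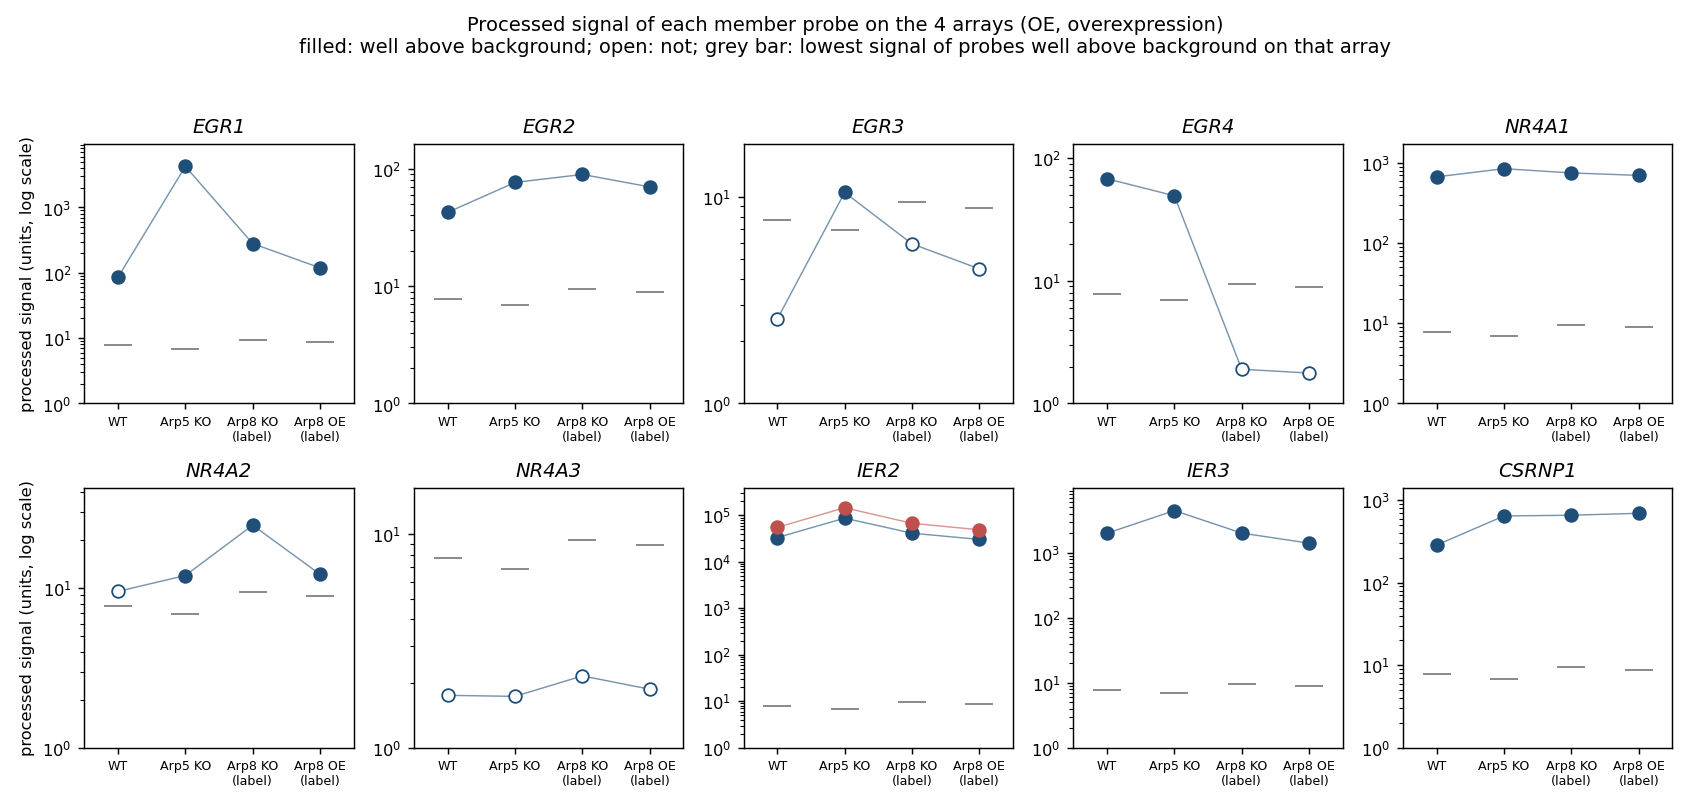
Processed signal in units (log scale) of each member probe on the 4 arrays, 1 panel per gene, with filled points well above background, open points not, and grey bars at the floor of that array, its dimmest signal well above background. *EGR1* stands at 4249 units in Arp5 KO cells and 85.2 in wild-type cells, while *EGR4* is not well above background on either array with an Arp8 label, and *IER2* has 2 probes (blue and red) with the same shape.

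The promoters of the members were read from the RefSeq table of GRCh38.p14, which held 7 of the 10 members with 11 gene starts. *EGR3*, *NR4A2* and *IER3* had no entry. The 250 bases before each start were searched on both strands. The motifs were the CArG box, the cAMP response element TGACGTCA, the EGR sites GCGTGGGCG and GCGGGGGCG and the NR4A site AAAGGTCA. Shorter ones were TGACG, the core of the cAMP response element and so contained in it, an ETS core with its flank, CCGGAA, and a TATA box, written as TATAAA. Matches are in capitals below, where CGTCA is TGACG read on the other strand. *EGR1* is shown because it was highest in Arp5 KO cells, the third start of *EGR2* because it was the other one with a CArG box, *EGR4* because it was lower on both arrays with an Arp8 label, *IER2* because a pair of probes gave nearly the same ratios, and the second start of *CSRNP1* because the gene was higher on all 3 arrays.
EGR1: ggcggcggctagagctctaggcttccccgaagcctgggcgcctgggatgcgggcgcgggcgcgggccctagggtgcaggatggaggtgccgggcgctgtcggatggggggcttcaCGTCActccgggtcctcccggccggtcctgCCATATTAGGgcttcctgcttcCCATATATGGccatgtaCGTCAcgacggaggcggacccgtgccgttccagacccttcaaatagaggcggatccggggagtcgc
EGR2: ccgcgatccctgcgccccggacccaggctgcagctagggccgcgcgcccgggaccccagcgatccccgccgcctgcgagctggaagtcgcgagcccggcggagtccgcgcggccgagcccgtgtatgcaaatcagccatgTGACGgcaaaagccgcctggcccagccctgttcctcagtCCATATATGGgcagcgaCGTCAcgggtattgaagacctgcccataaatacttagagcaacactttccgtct
EGR4: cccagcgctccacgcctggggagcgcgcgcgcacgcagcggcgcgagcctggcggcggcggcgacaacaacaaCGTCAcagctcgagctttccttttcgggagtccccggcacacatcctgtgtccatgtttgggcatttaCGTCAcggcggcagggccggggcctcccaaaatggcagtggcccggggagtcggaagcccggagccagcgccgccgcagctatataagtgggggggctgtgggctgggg
IER2: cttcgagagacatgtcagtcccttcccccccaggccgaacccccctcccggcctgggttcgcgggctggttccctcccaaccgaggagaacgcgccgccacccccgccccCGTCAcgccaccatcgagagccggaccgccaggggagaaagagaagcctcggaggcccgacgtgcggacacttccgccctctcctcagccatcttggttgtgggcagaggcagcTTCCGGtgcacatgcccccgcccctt
CSRNP1: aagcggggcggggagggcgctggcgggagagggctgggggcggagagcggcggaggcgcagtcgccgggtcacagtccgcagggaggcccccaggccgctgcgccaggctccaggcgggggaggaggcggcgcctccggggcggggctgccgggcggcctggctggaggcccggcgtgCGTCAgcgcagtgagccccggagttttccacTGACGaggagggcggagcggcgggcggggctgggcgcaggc
The windows lie at chr5:138465229-138465478 (*EGR1*), chr10:62816367-62816616 (*EGR2*), chr2:73293549-73293798 (*EGR4*), chr19:13150161-13150410 (*IER2*) and chr3:39153592-39153841 (*CSRNP1*) on their genes' strands (plus for *EGR1* and *IER2*, minus for the others).

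The EGR genes encode zinc finger transcription factors that bind GC-rich sites, and their 4 members did not move together. *EGR1* gave 85.2 units in wild-type and 4249 in Arp5 KO cells, with 280 on the array labelled Arp8 KO and 119 on that labelled Arp8 overexpression. It was 50.7-fold higher in Arp5 KO than in wild-type cells, a log2 ratio of 5.66 with a technical SD of 0.06, and with normexp the log2 ratio was 4.80. Against wild-type cells the array labelled Arp8 KO stood at 1.70 and the array labelled Arp8 overexpression at 0.46. The arrays therefore stood in the order wild-type, labelled Arp8 overexpression, labelled Arp8 KO and Arp5 KO, and each step of *EGR1* was larger than its technical SD.

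*EGR2*, known for its part in myelination and in the tolerance of lymphocytes, spanned a much smaller range. It gave 42.5 units in wild-type and 76.5 in Arp5 KO cells, with 89.5 on the array labelled Arp8 KO and 70.1 on that labelled Arp8 overexpression. Against wild-type cells these are log2 ratios of 0.87, 1.06 and 0.70, with a technical SD of 0.17. All 3 arrays were above wild-type cells by more than that SD, but the 1.06 lies within 1 SD of the 2-fold line, and with normexp it was 0.55.

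*EGR3*, a relative that is induced by antigen receptor signaling, was well above background in Arp5 KO cells only. It gave just over 10 units there, and 2.56, 5.92 and 4.48 units for wild-type cells and for the labels Arp8 KO and Arp8 overexpression, where it was not well above background. A dim probe has only a bound, so a signal below that array's floor (7.76 units in wild-type cells) was raised to it, and *EGR3* was then at least 1.38-fold higher in Arp5 KO than in wild-type cells. That bound is within the technical SD of such dim probes, 0.51 on the log2 scale.

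*EGR4*, another EGR family gene, was lower beyond 2-fold on both arrays with an Arp8 label and within 2-fold in Arp5 KO cells. It gave 67.7 units in wild-type cells and 49.2 in Arp5 KO cells, or -0.44 on the log2 scale with a technical SD of 0.17. On the arrays with the labels Arp8 KO and Arp8 overexpression it gave 1.90 and 1.77 units and was not well above background. *EGR4* was thus at least 7.26-fold lower on the array labelled Arp8 KO, and at least 7.76-fold lower on the array labelled Arp8 overexpression, than in wild-type cells, and with normexp its log2 ratio was -1.14 on both. No other member was lower beyond 2-fold than wild-type cells on these arrays. In bulk RNA, fewer cells with a transcript and less transcript per cell cannot be told apart.

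The NR4A genes encode orphan nuclear receptors whose activity is set mainly by their amount, and their differences were small or near background. *NR4A1*, also known as Nur77, gave 671 units in wild-type and 848 in Arp5 KO cells, with 751 on the array labelled Arp8 KO and 700 on that labelled Arp8 overexpression. Against wild-type cells it stood at log2 ratios of 0.36, 0.14 and 0.04 with a technical SD of 0.03, and the last of these was -0.02 with normexp. *NR4A1* was therefore the steadiest of the members measured on all arrays, and none of its ratios reached 2-fold.

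*NR4A2*, also known as Nurr1 and needed for dopaminergic neurons, was dim. It gave 9.54 units in wild-type cells, where it was not well above background, 12.0 with Arp5 KO, 24.8 on the array labelled Arp8 KO and 12.2 on the array labelled Arp8 overexpression. It was highest on the array labelled Arp8 KO, at least 2.57-fold above wild-type cells. That bound is 1.36 on the log2 scale with a technical SD of 0.51, so it lies within 1 SD of the 2-fold line. The wild-type signal in it was above that array's floor and was used as it stood. The log2 ratio of the array labelled Arp8 KO to the one labelled Arp8 overexpression was 1.03 with a technical SD of 0.25, within 1 SD of the 2-fold line, and 0.17 with normexp. *NR4A3* gave 1.76, 1.74, 2.17 and 1.88 units on the 4 arrays and was not well above background on any, so it has no ratio here.

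*IER2*, *IER3* and *CSRNP1* are immediate early genes outside these families. *IER2* encodes a small nuclear protein and is read by a pair of probes. The probe A_32_P36235 gave 55197 units in wild-type and 146116 in Arp5 KO cells, with 67527 on the array labelled Arp8 KO and 48923 on that labelled Arp8 overexpression. The probe A_23_P153905 gave 33321, 87169, 41353 and 30372 units in the same order. For Arp5 KO over wild-type cells the first gave a log2 ratio of 1.43 and the second 1.41, so the probes differed by less than the technical SD of 0.03. On the array labelled Arp8 KO they gave 0.27 and 0.29, and on that labelled Arp8 overexpression -0.20 and -0.16.

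*IER3*, a stress-inducible regulator of cell survival, had a similar shape. It gave 1998 units in wild-type and 4469 in Arp5 KO cells, with 2013 on the array labelled Arp8 KO and 1408 on that labelled Arp8 overexpression. Arp5 KO cells stood 1.18 log2 units above wild-type cells with a technical SD of 0.03. Wild-type cells and the array labelled Arp8 KO differed by -0.01, less than that SD and with a sign that differed between the alternatives (-0.03 to 0.03), and the array labelled Arp8 overexpression was lower, at -0.53.

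*CSRNP1*, a nuclear protein of the cysteine- and serine-rich family that was found as a gene induced by axin, was higher than in wild-type cells on all the other arrays and by about the same amount. It gave 286 units in wild-type and 644 in Arp5 KO cells, with 658 on the array labelled Arp8 KO and 694 on that labelled Arp8 overexpression. These are log2 ratios of 1.19, 1.18 and 1.26 over wild-type cells, with a technical SD of 0.06. Arp5 KO cells and the array labelled Arp8 KO differed by 0.01, less than the technical SD of 0.03 at that brightness and with a sign that differed between the alternatives (-0.07 to 0.01), while the 2 arrays with an Arp8 label differed by -0.07. All these ratios to wild-type cells rest on the single wild-type array.

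**Figure D2:**
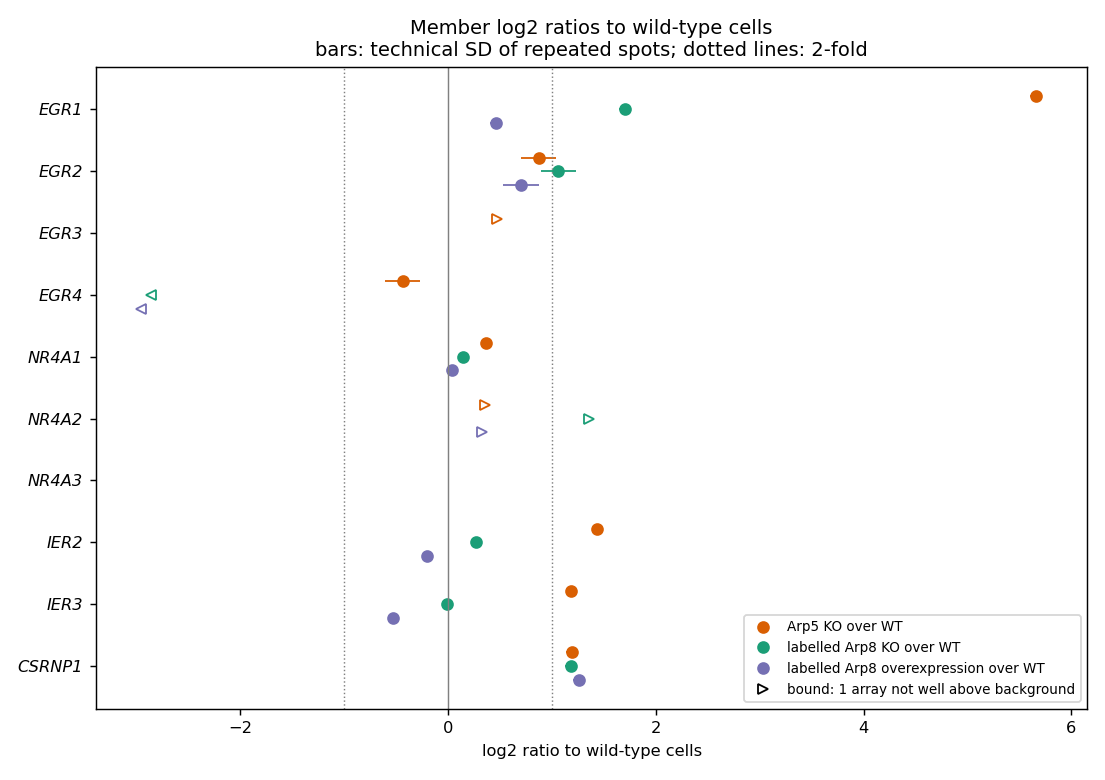
Log2 ratio to wild-type cells (horizontal axis) of each member for Arp5 KO cells and for arrays labelled Arp8 KO and Arp8 overexpression, with the technical SD of repeated spots as bars and open triangles for bounds. *EGR1* reaches 5.66 in Arp5 KO cells, the 3 points of *CSRNP1* lie between 1.18 and 1.26, and *EGR4* is at or below -2.86 on both arrays with an Arp8 label.

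**Figure D3:**
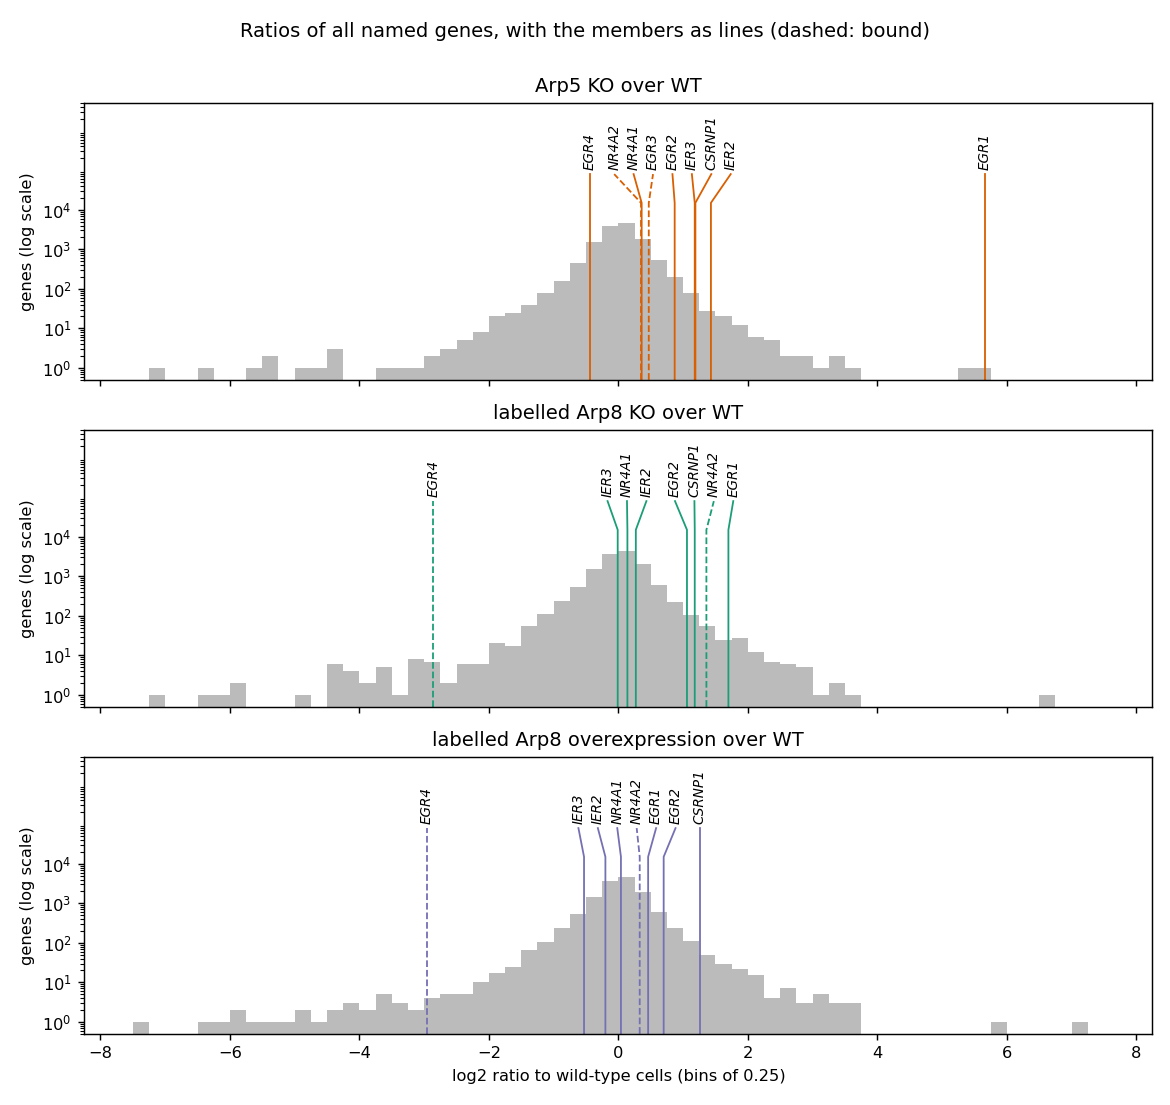
Histogram of the log2 ratios of all named genes to wild-type cells in bins of 0.25 (vertical axis, genes on a log scale), with the members as lines, dashed where the ratio is a bound. In Arp5 KO cells *EGR1* lies at the upper end of the distribution, while *NR4A1* at 0.36 and *EGR4* at -0.44 lie inside its bulk.

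The array labelled Arp8 KO was also set against the one labelled Arp8 overexpression in the same way. Here 7 members had a signal on either array. Of these, 2 were higher beyond 2-fold, *EGR1* with a log2 ratio of 1.24 and *NR4A2* with 1.03, where 0.749% of 13483 genes were, and 0 were lower, where 1.07% were. With normexp neither passed 2-fold, at 0.89 and 0.17. *IER2* was at 0.47, *IER3* at 0.52, *EGR2* at 0.36, *NR4A1* at 0.11 and *CSRNP1* at -0.07. The median of all 10 members, each at its own signal, was 0.38, beside 0.03 over all genes.

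Set directly against each other, Arp5 KO cells and the array labelled Arp8 KO differed in 5 members. *EGR1* was 15.6-fold higher in Arp5 KO cells, *EGR4* at least 5.36-fold, *IER3* 2.28-fold and *IER2* 2.22-fold. Thus 4 of the 9 members with a signal on either array were higher, where 1.57% of 13615 genes were. *NR4A2* alone was lower, with a log2 ratio of -1.01 and a technical SD of 0.25, where 1.63% of genes were. With normexp *NR4A2* was at -0.23 and *EGR4* at 0.92, both inside 2-fold. *CSRNP1* at 0.01, *EGR2* at -0.19 and *NR4A1* at 0.21 were close on these arrays, and the median of all 10 members was 0.54 beside -0.03 over all genes. In that median *EGR3* entered at its own signals, at 0.87, where its bound was 0.20.

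The other genes of the response were followed from lists. Of 28 further immediate early genes, 25 were well above background on an array of each comparison. In Arp5 KO cells 9 of them were higher than in wild-type cells beyond 2-fold and 0 were lower, beside the shares of all genes given above. On the array labelled Arp8 KO 4 were higher, and on the array labelled Arp8 overexpression 2 were higher. With normexp these counts were 2 and 1, and quantile normalization alone also gave 1 on the array labelled Arp8 overexpression. *MAFF*, a small MAF factor named after its values were seen, was lower on both arrays with an Arp8 label. Its log2 ratios were -1.02 and -1.04, both within 1 technical SD (0.17) of the 2-fold line. The median over all 28 genes was 0.30, 0.26 and -0.05. The 5 genes with the largest ratio to wild-type cells on any of the 3 arrays were the AP-1 subunits *FOS*, *JUN* and *FOSB*, the factor *KLF2* and the phosphatase gene *DUSP5*.

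*FOS* gave 58.7 units in wild-type and 2237 in Arp5 KO cells, with 306 on the array labelled Arp8 KO and 111 on that labelled Arp8 overexpression, the same order of arrays as *EGR1*. *FOSB* gave 36.2, 347, 82.8 and 54.5 units, and *JUN* gave 885, 11460, 6680 and 1533 units. *KLF2*, a lymphocyte quiescence factor, had probes that disagreed. Its brighter probe had a log2 ratio of 2.35 in Arp5 KO cells and the dimmer one 0.26. *DUSP5*, which in wild-type cells was not well above background, was at least 3.48-fold higher in Arp5 KO cells, at least 3.52-fold higher on the array labelled Arp8 KO and at least 4.39-fold higher on the array labelled Arp8 overexpression. Like *CSRNP1*, *DUSP5* was thus higher than in wild-type cells on all 3 arrays, by bounds with a technical SD of 0.51 on the log2 scale. Where both arrays had to be well above background, *DUSP5* had no ratio to wild-type cells.

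**Figure D4:**
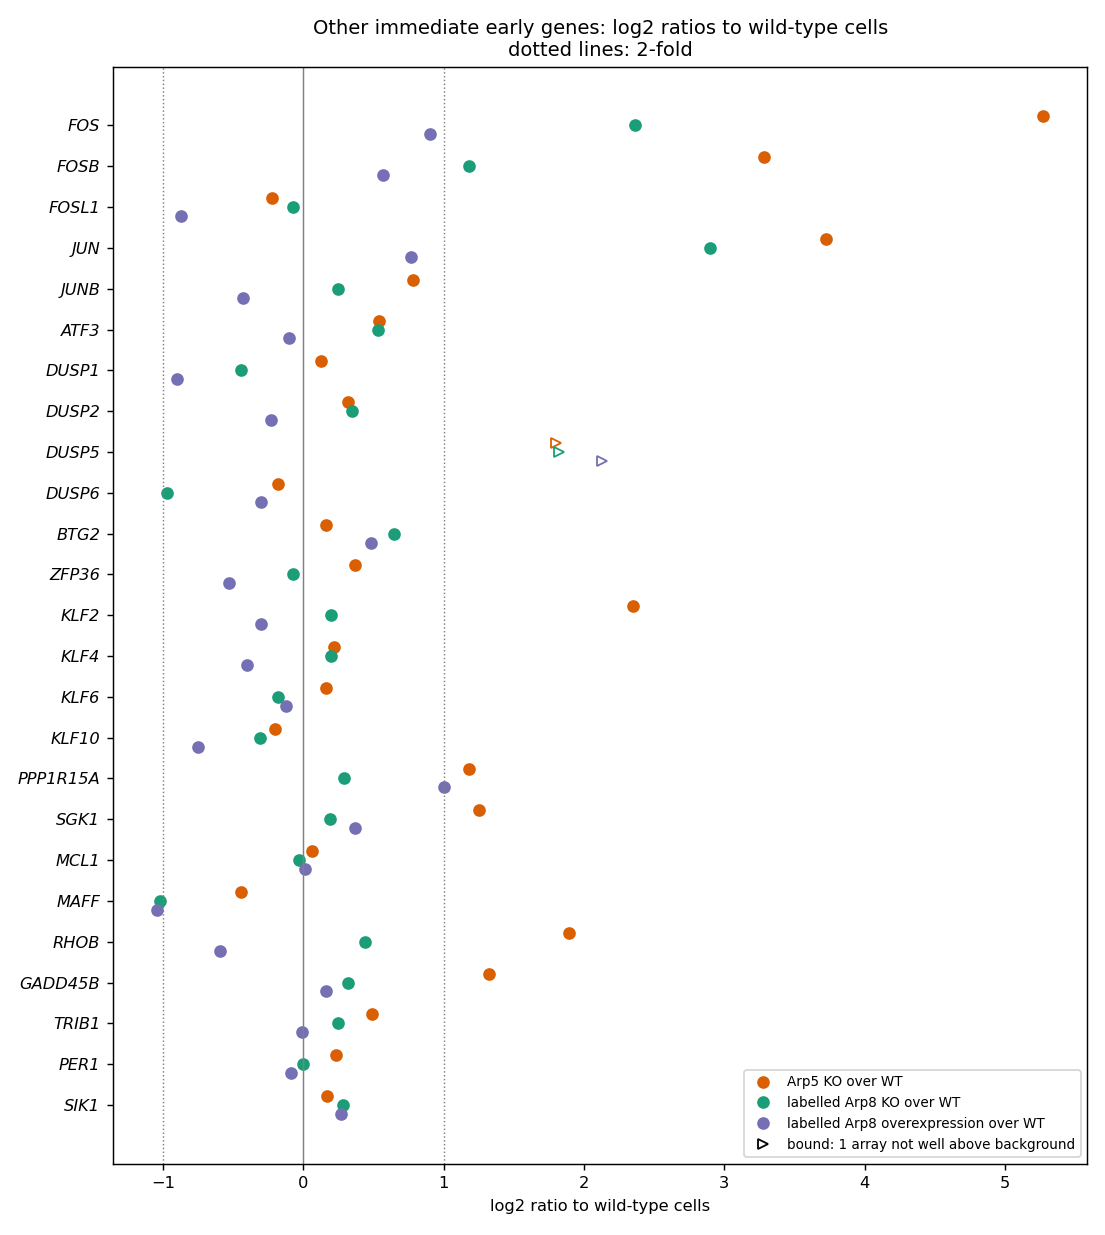
Log2 ratio to wild-type cells (horizontal axis) of the 25 measured genes from the list of other immediate early genes, for Arp5 KO cells and for arrays labelled Arp8 KO and Arp8 overexpression, with open triangles for bounds. *FOS*, *JUN* and *FOSB* lie farthest to the right in Arp5 KO cells, at 5.27, 3.72 and 3.28, and most of the other genes lie within 2-fold.

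Genes that act before or beside the members were read in the same way, and nothing is read from counts of 0 in short lists, given the small shares of all genes beyond 2-fold printed above. None of 15 kinases and small GTPases of the ERK pathway was beyond 2-fold in any of the 5 comparisons, with medians over wild-type cells of -0.05 (Arp5 KO), 0.03 (labelled Arp8 KO) and 0.08 (labelled Arp8 overexpression). The same held for 9 factors that bind these promoters, among them *SRF*, *ELK1* and *CREB1*, with medians of -0.07, -0.01 and 0.10. None of 6 genes for proteins that bind AU-rich mRNAs was beyond 2-fold, with medians of 0.04, -0.16 and -0.30. Of 9 corepressors, partners and relatives only *IER5L*, a relative of *IER2*, passed 2-fold, in Arp5 KO over wild-type cells, with a log2 ratio of 1.24.

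Genes with described EGR sites formed a further list. Of its 8 genes, 6 were well above background in the comparison of Arp5 KO with wild-type cells, and *PDGFA*, a growth factor subunit, was higher with a log2 ratio of 1.09. *ICAM1*, an adhesion receptor, was higher on the array labelled Arp8 overexpression, at 1.05. *NAB2*, a corepressor that EGR factors induce, was at 0.14 in Arp5 KO cells by its brighter probe. The medians over the 8 genes were -0.07, 0.24 and 0.00.

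Heat shock genes were taken as a sign of handling stress. None of the 5 that could be named passed 2-fold against wild-type cells by its brightest probe, and their medians were -0.34, -0.09 and -0.18. *HSPA1A* had 3 probes that disagreed in Arp5 KO cells, with log2 ratios of 0.14, 0.21 and -1.52. Markers of other cell types were also read. Of 4 T-cell markers *CD3D* and *CD3G* were not well above background on any array, *CD3E* was the brightest at 44.9 to 47.7 units, and the summed signal ran from 79.6 to 83.8 units. Neither of 2 stromal collagen genes was well above background. Of 5 myeloid markers *MPO* was not well above background, and the sum came to 233 units (wild-type), 217 (Arp5 KO), 362 (labelled Arp8 KO) and 337 (labelled Arp8 overexpression). *LYZ* gave 55.4 units in wild-type cells and was higher beyond 2-fold on both arrays with an Arp8 label, with 143 and 140 units and log2 ratios of 1.35 and 1.31. *CSF1R* was higher on the array labelled Arp8 overexpression, at 1.17 with a technical SD of 0.25, and *ITGAM* was at 0.94 on the array labelled Arp8 KO. *CD14*, the brightest of the 5 in wild-type and Arp5 KO cells with 119 and 124 units, did not follow them. Against wild-type cells *CD14* was at 0.08 (Arp5 KO), 0.02 (labelled Arp8 KO) and -0.14 (labelled Arp8 overexpression). In Arp5 KO cells over the array labelled Arp8 KO, *LYZ* at -1.58 and *ITGAM* at -1.36 were lower, while *CD14* was at 0.06. The part of these genes in the members' values was not tested.

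In the promoters shown above and the other member starts, a CArG box was found before 2 of the 11 member starts, those of *EGR1* and *EGR2*, and before 1.16% of all 35116 starts in the table. *EGR1* held a pair of them, ending 96 and 74 bases before its start, and *EGR2* held 1, at 71 to 62 bases. The TGACG core was found before 6 member starts, of *EGR1*, *EGR2*, *EGR4*, *NR4A3*, *IER2* and *CSRNP1*, and before 21.2% of all. The ETS core was found before 2, of *NR4A1* and *IER2*, and before 14.5% of all. No member start had TGACGTCA (1.65% of all), GCGTGGGCG (0.720%), GCGGGGGCG (4.72%), AAAGGTCA (1.05%) or TATAAA (10.7%) in this window. These matches describe the letters only, and binding was not measured here.

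**Figure D5:**
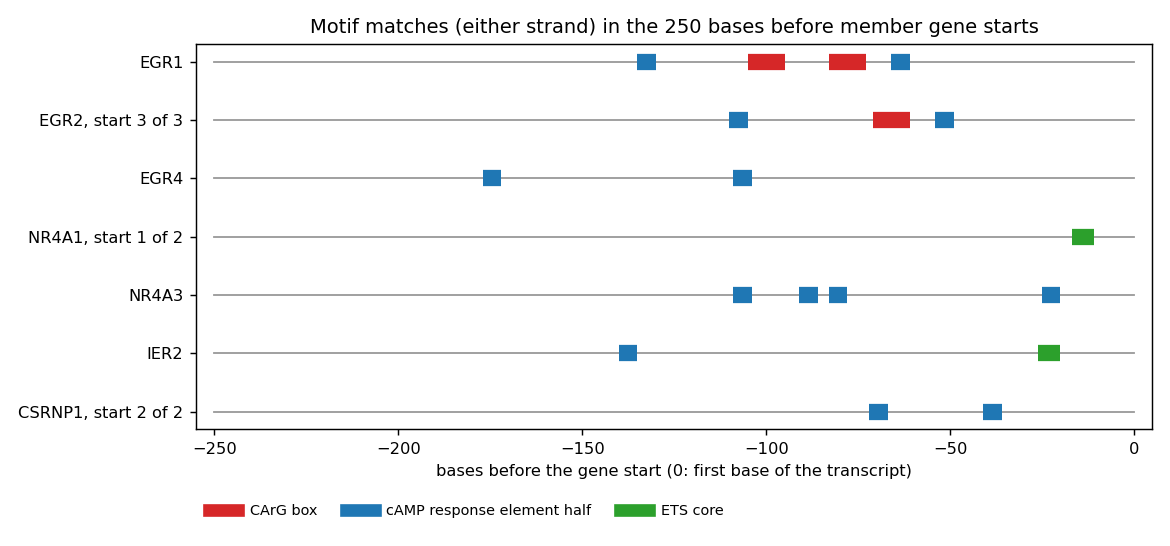
Positions of the motif matches on either strand, in bases before the gene start (horizontal axis), for the 7 member starts with a match, with CArG boxes in red, cores of the cAMP response element in blue and ETS cores in green. The CArG boxes of *EGR1* and *EGR2* lie close together, and the nearest ends 62 bases before the start.

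Genes with the most similar pattern over the 4 arrays were found by the Euclidean distance of mean-centred log2 values among 13836 genes well above background on at least 1 array, with dim signals below the floor raised to it. For *EGR1* they were *FOS* at 0.81, *FOSB* at 2.0, *CRYBG3* at 2.03, *CYB5R2* at 2.06 and *FOXD1* at 2.28. The last 3 were high in Arp5 KO cells but were below or near wild-type cells on the other arrays, with *CRYBG3* at 28.5, 243, 17.7 and 14.7 units. For *IER2* they were *RASL11A* at 0.16, *HEY1* at 0.22, *IER3* at 0.25, *SMAD7* at 0.28 and *CHRNA3* at 0.30. For *CSRNP1* they were *MUCL1* at 0.11, *ADCY10P1* at 0.16, *APOBR* at 0.17, *TET1* at 0.18 and *SPINT2* at 0.20, each lowest in wild-type cells.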

How the data were processed

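Total RNA of Nalm-6 cells was measured on 1 single-color array for each of 4 labels. The authors deposited the scanner output of Agilent Feature Extraction 10.5.1.1, in which the processed signal is an intensity, background-subtracted and detrended within the array and not scaled between arrays. Per the file headers, the marks for well above background, outliers and saturation are 0 or 1 per spot. Their value table holds an intensity close to the processed signal times a factor per array (median ratio 0.807 to 0.847, with 83.8 to 85.5% of spots within 1% of it), on a linear scale without centring, with medians of 127, 128, 122 and 119 for wild-type cells, Arp5 KO cells and the arrays with the labels Arp8 KO and Arp8 overexpression. How the factor was set is not given in the sources used here. The log2 processed signal was taken minus the 75th percentile of each array. Outlier spots were left out, and spots of a probe averaged. A gene was read from its brightest probe. Ratios needed 1 array well above background, and a dim side below the array's floor was raised to it (its dimmest signal well above background, 7.76, 6.90, 9.44 and 8.87 units). No spot was saturated.

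Genes were named from accessions through the table of assembly GRCh38.p14 (26222 of 41000 probes, 64.0%), and probe positions were not used, since the file headers name hg18. Promoter windows and the order of neighbouring genes came from the same assembly. The members and lists were chosen with earlier results of these data known. Named were all members, at most 5 genes per list beyond 2-fold against wild-type cells (and *MAFF*, picked after its values were seen), and the 5 most similar genes of 3 members. The calling steps were run on simulated data that held only technical error and planted changes beyond 2-fold. Without variation between cultures, that run cannot show how well the calls would repeat. Alternatives were other scalings, the authors' table, normexp (offset 50, on the median signal) followed by quantile normalization with limma 3.58.1 in R 4.3.3, other filters on dim probes, other folds, another probe rule and outlier spots kept. Python 3.11.15, numpy 2.4.6, pandas 2.3.3 and matplotlib 3.10.9 were used.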

Additional observations from a re-analysis of the deposited data

How the results depend on the processing

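With 1 array for each genotype, no paired analysis was possible. The 41 member ratios were recomputed under up to 10 alternatives. Bounds of *EGR3*, *EGR4* and *NR4A2* have no value with both arrays well above background, and *NR4A2* in Arp5 KO over wild-type cells has none with normexp. Of these values 344 were within the technical SD of the main value, 57 moved beyond it, and 0 of those beyond 2-fold reversed. Many of the 344 could not differ, so their number is no measure of stability. The filters on dim probes leave a ratio measured on both arrays as it is. Another probe rule can alter only *IER2*, and outlier spots kept moved no ratio (0.00). Ratios near 0 changed sign for *NR4A1* (labelled Arp8 overexpression over wild-type), *IER3* (labelled Arp8 KO over wild-type) and *CSRNP1* (Arp5 KO over labelled Arp8 KO). The largest moves came with normexp followed by quantile normalization, called normexp below (1.82), and with dim probes at their own signal (2.32), both for *EGR4*, and other scalings moved no ratio by more than 0.19. No scaling moved the median of all genes by over 0.1.

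At a 3-fold threshold the members higher were 1 in Arp5 KO over wild-type cells, 1 on the array labelled Arp8 KO, 0 on the array labelled Arp8 overexpression, 0 for the array labelled Arp8 KO over the one labelled Arp8 overexpression and 2 in Arp5 KO over the array labelled Arp8 KO, where 0 were lower. At 1.5-fold 2 were higher on the array labelled Arp8 overexpression. With normexp 2 members were higher on the array labelled Arp8 KO, 0 between that and the array labelled Arp8 overexpression, and 0 were lower in Arp5 KO over the array labelled Arp8 KO. That combined setting also moved the share of higher calls over all genes on the array labelled Arp8 KO from 48.7% to 37.9%, with 83 higher and 136 lower in place of 246 and 259, and quantile normalization alone gave 53.3%. Normexp gave 46 higher and 69 lower in Arp5 KO over wild-type cells (main 159 and 191). On the array labelled Arp8 overexpression it gave 89 and 126 (main 253 and 264). For the array labelled Arp8 KO over that one it gave 44 and 51 (main 101 and 144). For Arp5 KO cells over the array labelled Arp8 KO it gave 85 and 86 (main 214 and 222). Scaling to the median of each array moved the share of higher calls there from 49.1% to 39.4%. With both arrays well above background, chosen for these counts after seeing the data like the other alternatives for lower members and further immediate early genes, 0 members were lower on either array with an Arp8 label, because *EGR4* was left out. Of the other immediate early genes higher, normexp gave 2 on the array labelled Arp8 KO. On the array labelled Arp8 overexpression there was 1 with quantile normalization, with the 75th percentile of probes that were bright enough on all 4 arrays, with normexp, with both arrays well above background and at 3-fold, and 4 at 1.5-fold. The cause was not tested where the alternative does not state it. The other 137 count values were within 1.5 times the main count. Signals under 20 units, those of *EGR3*, *NR4A2* and *NR4A3* on most arrays, limit what can be read.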

Other observations

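The genes next to the members in the order of the reference table were looked up after the members' values had been seen. *TTC21A*, the named gene before *CSRNP1*, was higher than in wild-type cells beyond 2-fold on both arrays with an Arp8 label and within 2-fold in Arp5 KO cells. Its signals were 325 units (wild-type), 558 (Arp5 KO), 797 (labelled Arp8 KO) and 669 (labelled Arp8 overexpression), with log2 ratios of 0.80, 1.28 and 1.02. Beside *NR4A3*, which itself was not well above background, *STX17* gave 1173, 1028, 592 and 579 units, with log2 ratios of -0.17, -1.0 and -1.04, and *SEC61B* gave 60484, 64681, 34601 and 38206 units, with 0.12, -0.82 and -0.69. *FBXO41* and *ALMS1*, beside *EGR4*, stayed within 2-fold, at -0.18 to 0.32 and -0.17 to 0.02, while *EGR4* itself was not well above background on the arrays with an Arp8 label. *ETF1*, beside *EGR1*, was at 0.02, 0.08 and 0.04, and *REEP2* on the other side was at -0.63, -0.36 and -0.25. The further neighbours that could be measured were within 2-fold of wild-type cells, and no link between neighbours was tested.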
